A study of Mus musculus with 45 samples.

Results

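RNA from 6 *PyMT*+ mouse mammary tumour cell lines was compared: the parental line YEJH, from a primary tumour of the mammary gland, and the 5 lung lines YEJH-M1 to YEJH-M5 that descend from it. The lines were chosen by their labels, and they account for 18 of the 45 libraries and 6 of the 15 lines in the series. *PyMT* is the polyomavirus middle T oncogene, which drives mammary adenocarcinoma when the MMTV promoter expresses it in mammary epithelium, and the mice were on an FVB/N background. The lung lines were grown out of micrometastases found in the lung after a tumour that transplanted cells had formed in the fat pad was removed. YEJH-M3 is labelled lung metastases and the other 4 are labelled whole lung. All lines carry the oncogene, and the labels give no treatment. The parental line is a single culture, so that whatever sets this culture apart enters every comparison below. Each line has 3 repeat libraries, which nothing names as separate cultures, so the line was the unit of replication. The 5 fat-pad lines YEJH-FP1 to YEJH-FP5, and the line YEJG from another primary tumour with its lung lines YEJG-M1 and YEJG-M2, serve below as references.

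A line grown from a metastasis keeps what transplantation, growth in a mouse, dissemination and return to culture leave in its cells. Metastatic mammary cells are known to differ from primary tumour cells in lipid supply, growth factor signalling, antigen presentation and attachment to matrix. Cholesterol is made from acetyl-CoA through mevalonate and squalene by enzymes that the transcription factor SREBP2 regulates together, while a related set of genes under SREBP1 builds, elongates and desaturates fatty acids. The question here was which transcripts lay on the same side of the parental line in all 5 lung lines.

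Between 9723860 and 16922450 reads per library fell on genes. The library kit does not mark strand, so a gene and an antisense partner cannot be told apart. Sequencing was done in a pair of library runs, here called A and B, and every line had libraries in both. The labelled cell type held: 8 mammary epithelial markers, among them *Krt8*, *Epcam* and *Cdh1*, summed to 84886 to 107213 normalised counts in the lung lines and 87904 in the parental line. A normalised count is a read count scaled to the mean library size. The lung epithelial markers *Sftpc*, *Sftpb* and *Scgb1a1* had no read, and all 6 such markers summed to 1.62 to 5.78 in the lung lines and 1.82 in the parental line. The 10 leukocyte markers, of which *Lyz2*, *Itgam*, *Tyrobp* and *Cd3e* were at 0, summed to 57.7 to 98.2 against 59. Most of that sum came from *Csf1r*, at 31 to 69.4 against 28.2, and *Cd68*, at 18.2 to 37.7 against 24. Endothelial markers summed to 2.46 to 12 against 4.02, fibroblast markers to 35.9 to 87 against 41.9, and adipocyte markers to at most 1.25 against 0. None of these markers was called in the comparison below, and their part in its results was not tested. In such bulk samples, fewer cells of a type and less RNA per cell cannot be told apart. YEJH-M3 repeat 2 and YEJH repeat 1 stood apart, with a median correlation across genes of 0.959 and 0.955 with other libraries of their run, where the other libraries had 0.97 to 0.987.

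Of 16653 genes tested, 563 (3.38%) were called, meaning that they passed an adjusted p of 0.05 in edgeR's quasi-likelihood test on counts summed per line and that all 5 lung lines lay on the same side of the parental line. Of these, 245 (1.47% of those tested) were higher in the lung lines and 318 (1.91%) were lower. The median fold of a called gene was 2.53 among increases and 1.48 among decreases, and 87 increases but 39 decreases exceeded 4-fold. The median log2 fold change over all genes tested was 0.0064, close to 0. Most called genes, 538 of 563, were protein coding, but this was not compared with the share among all genes tested.

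A position of all 5 lines on the same side was common by itself. It held for 7401 genes, 3781 above and 3620 below, since all lung lines were set against the same parental culture. With 5 lines against 1, an exact permutation test of a single gene, its one-sided p doubled, cannot give a p under 0.333. Each adjusted p below therefore comes from a spread shared across genes and with the fat-pad lines. All 15 lung libraries lay on the same side of all 3 parental libraries for 886 genes (5.32% of those tested), and 408 of the called genes were among them. When each lung line was tested alone against the parental line with libraries kept apart, 483 of 13699 genes (3.53%) passed for all 5 lines in the same direction, and 324 called genes were among these. This last test measures the spread between repeat libraries and not between cultures.

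**Figure D1:**
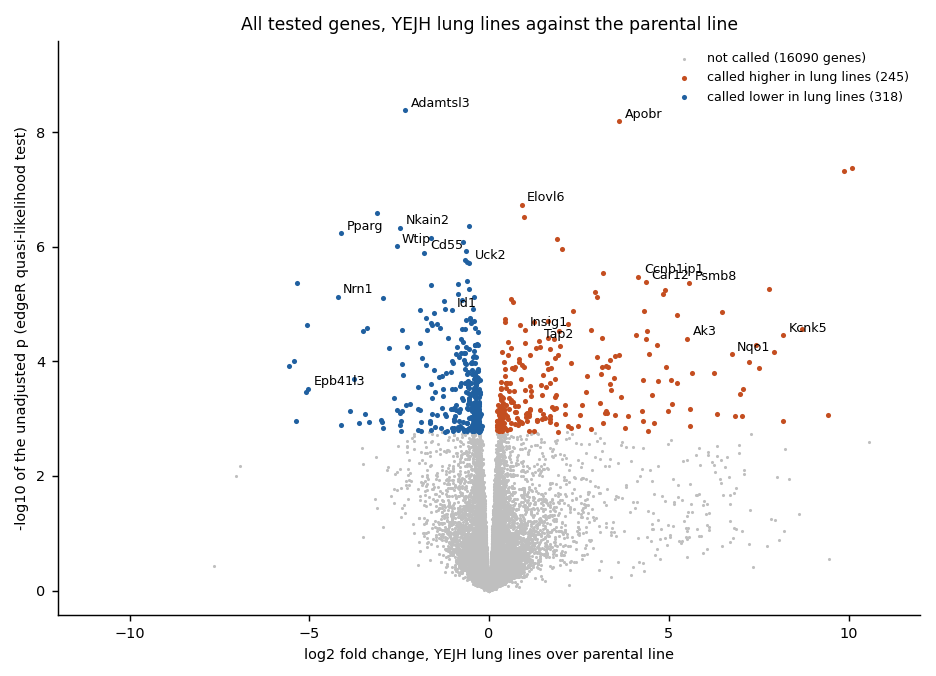
Each point is a gene tested between the YEJH lung lines and the parental line, with its log2 fold change on the x axis and the negative log10 of its unadjusted p on the y axis. Orange points are the 245 genes called higher, blue points the 318 called lower and grey points the others. Called increases spread further from 0 than called decreases, and 1 gene that was not called lies outside the 12 log2 units shown on each side.

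The number of calls changed with the lines and libraries that entered the fit, and the cause was not tested. With the fat-pad lines left out of the fit 14 genes passed, among them *Adamtsl3*, *Apobr*, *Ppic* and *Psmb8*. The count was 273 without YEJH-M4, 962 without YEJH-M1, 904 without YEJH-M5, 341 without YEJH repeat 2 and 2103 without YEJH repeat 3. Without both libraries that stood apart it was 617. All 77 called genes that the naming rule chose kept their direction in each of 21 alternatives that tested them. Lung and parental libraries overlapped for 10 of the 77, namely *Id2*, *Fzd1*, *Sdc1*, *Bax*, *Zfp36*, *Itgb4*, *Pkp3*, *Lims1*, *Aldoc* and *Igtp*. The naming rule admitted the 12 largest changes in each direction only without overlap, so this count follows in part from the rule. Of all 563 called genes, 408 had no overlap. Calls were lost most often for *Lims1*, in 17 of 21 alternatives with adjusted p up to 0.537. Next came *Aldoc*, in 14 of 20, and *Bst2*, in 12 of 21. They were lost in 10 of 21 for *Adgrg3* and *Bax* and in 10 of 20 for *Prlr*.

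Of the 12 largest increases, 8 were in genes whose parental level lay under 10 normalised counts. The ranking kept only genes of at least 100 normalised counts in the higher group and with no overlap of lung and parental libraries, so that low parental levels and the lack of overlap follow in part from the rule. *Nqo1*, a quinone reductase and a classical target of the oxidative stress factor NRF2, had 2.58, 4.38 and 10.2 normalised counts in the 3 parental libraries. In the 15 lung libraries it ranged from 300.4 to 1279 with a median of 599. The fold was 108 (log2 6.75, standard error 1.07, adjusted p = 0.0102). The lung lines themselves ran from 337 in YEJH-M1 to 1134 in YEJH-M2. Of 39 glutathione and NRF2 target genes tested, *Nqo1* was the 1 called higher and 1 was called lower, beside 1.47% and 1.91% of all genes tested. The median log2 change of that list was -0.025. All 5 lung lines lay above the parental line for 4 of its members and below it for 12, beside 3781 and 3620 of all 16653 genes tested.

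*Kcnk5*, a background potassium channel, had 1 read in the 3 parental libraries together against 1753 in the lung libraries. This was a ratio of 334 after scaling for library size, with a 95% exact interval from 59.9 to 13203 that covers counting error only. Its lung libraries held 41.6 to 187 normalised counts, and YEJH-M5 was the lowest line at 48.2 (adjusted p = 0.00698). *Ak3*, a mitochondrial adenylate kinase, rose from 5.16, 7.67 and 8.5 in the parental libraries to between 219 and 527, with a median of 270.2 (45.9-fold, adjusted p = 0.00762). *P2rx7*, an ATP-gated cation channel, rose from 11.6, 5.48 and 8.5 to between 71 and 255, with a median of 183 (21.7-fold, adjusted p = 0.0102).

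The other genes of the 12 lay at various levels. *Tmem37* averaged 104 ± 55.4 (SD, n = 5 lines) in the lung lines against 1.07 in the parental line, and *Phactr1*, which binds actin and protein phosphatase 1, 101 ± 51.6 against 1.95. *Slfn3*, a Schlafen family gene whose reads may be shared with close paralogs, averaged 143 ± 51.7 against 6.35, and *Ccnb1ip1*, known from meiotic crossing over, 120.5 ± 25.8 against 6.8. *Apobr*, a receptor for apolipoprotein B, was already expressed in the parental libraries at 89, 151 and 137 and rose to between 1124 and 1941, with a median of 1655. Its lung lines were close together at 1579 ± 216, and its adjusted p was 5.38e-05 (log2 3.62, standard error 0.213). *Faim2*, an inhibitor of Fas-mediated cell death, averaged 1577 ± 986 against 69, and of these 12 genes it varied most among lines relative to its mean, from 809 in YEJH-M3 to 3199.8 in YEJH-M1. *Car12*, a membrane carbonic anhydrase, averaged 331 ± 90.8 against 17.2, and *Dnajc22*, of the DNAJ cochaperones, 261 ± 95.3 against 23.8. YEJH-M5 was the lowest lung line for 8 of these 12 genes.

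**Figure D2:**
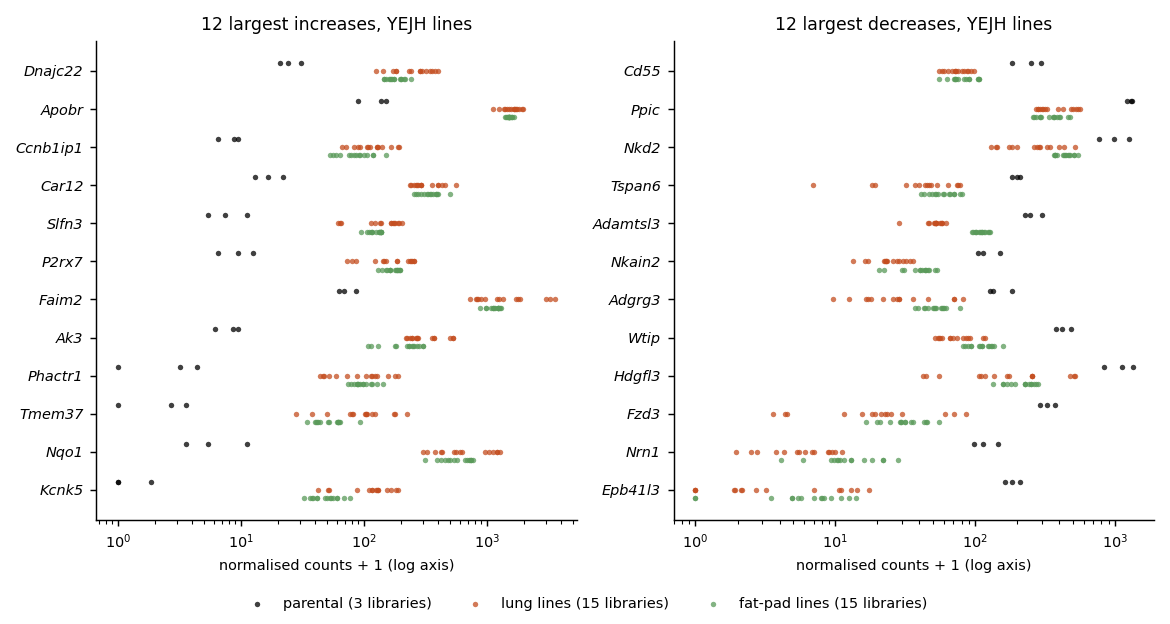
Normalised counts plus 1 on a log axis are shown for the 12 largest increases (left) and the 12 largest decreases (right) that met the rule for naming. Each point is a library, black for the 3 parental, orange for the 15 lung and green for the 15 fat-pad libraries. Parental and lung libraries do not overlap for the genes shown because the rule required it.

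The fat-pad lines, grown out of tumours in the fat pad, were higher than the parental line as well for the genes given here. They averaged 560.1 ± 119.7 normalised counts of *Nqo1* (SD, n = 5), 219 ± 66.9 of *Ak3*, 170.5 ± 14.7 of *P2rx7* and 1511 ± 48.9 of *Apobr*. None of the 12 largest increases passed the test between lung and fat-pad lines. For *Kcnk5*, at 48.9 ± 10.5 in fat-pad lines, the log2 difference was 1.24 (standard error 0.296, adjusted p = 0.259). Both contrasts share the lung lines and both rest on the same fit, so they are not independent of each other. For all 563 called genes, those named below included, the fat-pad mean lay on the same side of the parental line as the lung lines. All 5 fat-pad lines lay there for 561 of them. Lung and fat-pad lines were set against the same parental culture, so these counts carry no test.

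By their labels, YEJG and its lung lines share no sample with YEJH. The library labelled YEJG-M1 repeat 1 has a library name that reads YEJH_M1, and the YEJG-M1 values here include it. For all 8 genes near 0 in YEJH, the YEJG line was low as well and both YEJG lung lines were higher. *Nqo1* stood at 7.02 in YEJG and at 2108 and 1787 in YEJG-M1 and YEJG-M2. *P2rx7* stood at 1.46, with 199 and 131 in the lung lines, *Slfn3* at 0.581, with 136 and 173, and *Ak3* at 5.46, with 67.5 and 532. The 12 largest increases in YEJH were all higher in both YEJG lung lines than in YEJG. Over all called genes, both YEJG lung lines lay above YEJG for 175 of the 245 called higher (71.4%), against 41.7% of all genes tested, and below it for 201 of the 318 called lower (63.2%), against 41.1%. These shares describe 3 YEJG lines and carry no test.

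**Figure D3:**
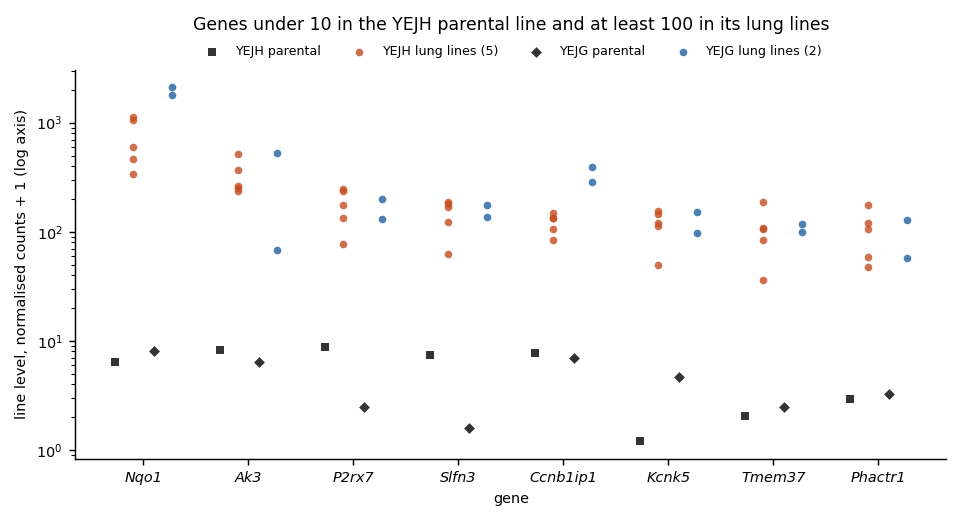
The level of each line in normalised counts plus 1 is shown on a log axis for the 8 genes that lay under 10 in the YEJH parental line and averaged at least 100 in its lung lines. Black squares and diamonds are the YEJH and YEJG parental lines, orange points the 5 YEJH lung lines and blue points the 2 YEJG lung lines. Each lung line of either origin lies above its own parental line for the genes shown.

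The largest decreases included genes of the cell surface, Wnt signalling and matrix. *Epb41l3*, which links membrane proteins to the cytoskeleton, had 209, 182 and 162 normalised counts in the parental libraries and 0 to 16.4 in the lung libraries, with a median of 1.73 (32.9-fold lower, adjusted p = 0.021). *Nrn1*, which encodes the surface protein neuritin, had 146, 96.4 and 113 against 0.963 to 10.2, with a median of 5.08 (18.5-fold lower, adjusted p = 0.00335). *Fzd3*, a Frizzled receptor for Wnt ligands, had 289, 323 and 371 against 2.59 to 85, with a median of 20.3 (14.6-fold lower, adjusted p = 0.0338). YEJH-M5 kept more *Fzd3* than the other lung lines.

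Decreases that were alike in all 5 lines had the smaller standard errors. *Adamtsl3*, which encodes a matrix glycoprotein related to ADAMTS proteases, had 302, 245 and 225 in the parental libraries and 27.6 to 60.6 in the lung libraries, with a median of 51.3. Its 5 lung lines spanned only 45.2 to 56.7 (log2 -2.33, standard error 0.131, adjusted p = 5.38e-05). *Cd55*, which protects cells from complement, fell from 182, 249.8 and 296 to between 53.9 and 96.5, with a median of 71.5 (log2 -1.80, standard error 0.181, adjusted p = 0.00123).

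*Wtip*, a LIM domain protein, averaged 75.1 ± 18.9 (SD, n = 5) against 424, *Nkain2*, which binds the sodium pump, 23.6 ± 4.85 against 119.6, and *Tspan6*, a tetraspanin, 44.2 ± 21.8 against 197. *Nkd2*, an antagonist of Wnt signalling, averaged 268 ± 117 against 998, and *Ppic*, the prolyl isomerase cyclophilin C, 387 ± 111 against 1262. The lung lines were far apart for *Hdgfl3*, at 216 ± 178 against 1099, and for *Adgrg3*, an adhesion receptor, at 32.9 ± 25 against 142. *S100a4*, a calcium-binding protein known from motile cells, was the called member among 28 mesenchymal genes tested, a share near the 3.38% of all genes. It fell from 6313, 8268 and 5810.3 to between 1248 and 4643, with a median of 2140.4 (log2 -1.72, standard error 0.244, adjusted p = 0.00617).

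In YEJG, both lung lines lay below their parental line for 7 of the 12 largest decreases, above it for 3 and on either side for 2. *Epb41l3* stood at 67.3 in YEJG but at 490.5 and 664 in its lung lines, *Adamtsl3* at 93 but at 901 and 164, and *Wtip* at 12.4 but at 75.3 and 135. Whether the lung minus parental change differed between origins was tested over all lines, and 2170 of 17110 genes (12.7%) passed, among them 205 of the 563 called genes. Without the library labelled YEJG-M1 repeat 1 the count was 1807. All 3 genes passed, by -7.94 (standard error 1.37, adjusted p = 0.00331), -5.16 (standard error 0.845, adjusted p = 0.00242) and -5.33 (standard error 0.618, adjusted p = 0.00033) on the log2 scale, YEJH minus YEJG. *Nkd2* and *Cd55* were lower in both origins and by more in YEJG, where *Nkd2* went from 1323 to 10.8 and 2.68.

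Of 24 genes of cholesterol synthesis tested, 10 were called higher, beside 1.47% of all genes tested, and 0 lower. All 5 lung lines lay above the parental line for 21 of the 24, beside 3781 of all 16653 genes tested. The median log2 change of the list was 0.73 beside 0.0064 over all genes. The called genes ran along the pathway, from *Hmgcs1*, which makes HMG-CoA, through *Mvd* and *Idi1* of the mevalonate branch to *Lss*, *Cyp51* and *Msmo1*, which close and trim the sterol. *Insig1*, the sterol-responsive brake on SREBP processing, and *Stard4*, a sterol carrier, were called as well. Of these, *Idi1*, *Mvd* and *Cyp51* met the rule for naming and the other 5 were picked with their values known.

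*Idi1*, isopentenyl diphosphate isomerase, had 102, 265 and 213 normalised counts in the parental libraries and 275 to 710.5 in the lung libraries, with a median of 411 (2.2-fold, standard error of log2 0.181, adjusted p = 0.0102). *Cyp51*, lanosterol demethylase, had 1055, 1272 and 1362 against 1839 to 3090.2, with a median of 2635 (2.02-fold, standard error of log2 0.203, adjusted p = 0.028). Lung and parental libraries did not overlap for any of the 10 called genes, beside 408 of all 563 called genes and 5.32% of all genes tested, and the low *Idi1* value of YEJH repeat 1 belongs to a library that stood apart.

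*Mvd*, which completes isopentenyl diphosphate, averaged 243 ± 41 (SD, n = 5) against 124, *Insig1* 844 ± 98.4 against 444, *Lss* 792 ± 75.9 against 461 and *Hmgcs1* 2830.4 ± 473 against 1511. *Sqle*, the squalene epoxidase, had a log2 change of 0.96 that did not pass (adjusted p = 0.101), and neither did that of *Srebf2*, the gene of the regulator SREBP2, at 0.60 (adjusted p = 0.127). *Dhcr7*, a sterol reductase, stood at 2419 ± 291 against 2936 (adjusted p = 0.385).

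The 5 lung lines were unequal in this list. The median log2 ratio to the parental line over its 24 genes, computed on levels plus 1, ran from 0.29 in YEJH-M5 to 0.87 in YEJH-M1, and the fat-pad lines had 0.21 to 0.62. Between lung and fat-pad lines 0 of the genes passed edgeR's quasi-likelihood test after adjustment. In that test 20 of the 24 had an unadjusted p under 0.05, beside 1304 of all 16653 genes tested. The number of called members was 18 without YEJH-M5, 4 without YEJH-M4, 5 without YEJH repeat 2, 3 in run A alone, 19 by DESeq2 and 0 with the fat-pad lines left out of the fit.

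YEJG gave other values for the same list. YEJG-M1 lay above YEJG for 3 and YEJG-M2 for 2 of the genes, with median log2 ratios of -0.52 and -0.38. The change differed between origins for 16 of the 24 genes at an adjusted p of 0.05, each time with the higher value in YEJH. Such a higher value in YEJH held for 1135 of all 17110 genes tested. All 10 called cholesterol genes were among the 16. *Cyp51* stood at 1584 in YEJG and at 874 and 972 in its lung lines, and the difference between origins was 1.86 on the log2 scale (standard error 0.286, adjusted p = 0.00177).

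**Figure D4:**
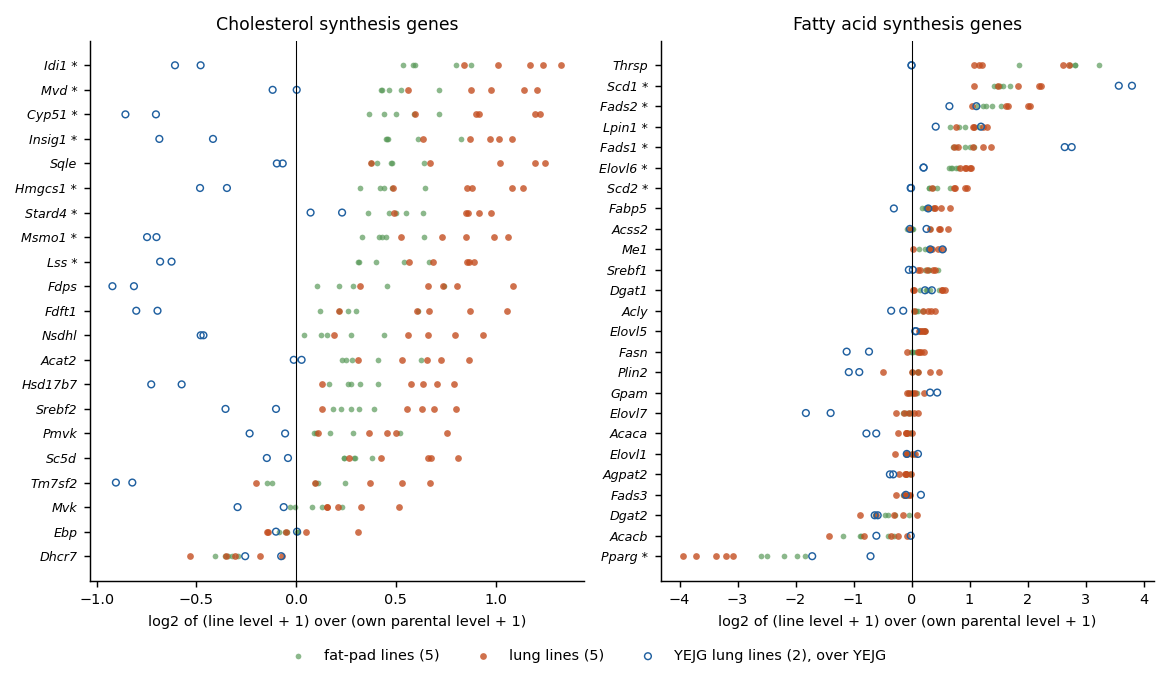
For the cholesterol synthesis (left) and fatty acid synthesis (right) genes tested and reported here, each point is a line, placed by the log2 of its level plus 1 over the level plus 1 of its own parental line. Orange points are the 5 YEJH lung lines, green points the 5 YEJH fat-pad lines and open blue circles the 2 YEJG lung lines, and an asterisk marks a called gene. YEJH lung lines lie right of 0 for most cholesterol genes, while the YEJG lung lines lie mostly left of it.

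The *Hmgcs1* promoter is shown because it held the sterol element through which SREBP acts, searched as TCACNCCAC on both strands. Windows of 250 bases before and 50 after a start site came from RefSeq on GRCm38.p6, and 7 of the 10 called cholesterol genes had one. The element was in 1 of these 7 windows and in 1.11% of the 13167 windows of tested genes. Its core CACNCCA, which lies within it, was in 3 of the 7 and in 17.9% of all windows, and the E-box CACGTG in 1 of the 7 and in 9.63%. Capitals mark the element, which begins at -137 from the start site and is a match of letters only.
*Hmgcs1*, chr13:119690101-119690400, + strand: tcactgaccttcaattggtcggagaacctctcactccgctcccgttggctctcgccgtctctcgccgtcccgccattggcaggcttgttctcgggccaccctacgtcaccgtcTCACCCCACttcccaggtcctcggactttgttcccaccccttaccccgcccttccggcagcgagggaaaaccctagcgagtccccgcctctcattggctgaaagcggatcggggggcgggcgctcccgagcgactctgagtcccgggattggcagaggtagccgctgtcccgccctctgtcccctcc

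Fatty acid genes were called at particular steps. Of 25 tested, 6 were called higher and 1 lower, beside 1.47% and 1.91% of all genes tested, with a median log2 change of 0.29. *Scd1*, a stearoyl-CoA desaturase, had 362, 323 and 345 normalised counts in the parental libraries and 704 to 1716 in the lung libraries, with a median of 1207 (3.62-fold, adjusted p = 0.0329). *Fads2*, which desaturates polyunsaturated fatty acids, had 155, 198 and 176 against 355 to 777, with a median of 610.3 (3.56-fold, adjusted p = 0.0172). The libraries of lung and parental lines did not overlap for either gene, beside 408 of all 563 called genes and 5.32% of all genes tested. *Lpin1*, a phosphatidate phosphatase, averaged 113 ± 15.6 (SD, n = 5) against 52.1 (adjusted p = 0.0199).

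Named after their values were seen, the elongase *Elovl6* rose to 1769.7 ± 97.3 from 917 (SD, n = 5, log2 0.91, standard error 0.0749, adjusted p = 0.000616), and the desaturases *Fads1* and *Scd2* rose by 1.10 and 0.80 on the log2 scale. The enzymes that build palmitate were not called, with *Fasn* at 40146 ± 2883 against 37197 (adjusted p = 0.619) and *Acaca* at 3024 ± 173 against 3235 (adjusted p = 0.72). The called decrease was *Pparg*, the nuclear receptor of adipocyte fat storage. It was low throughout, at 18.1, 26.3 and 17 in the parental libraries and 0 to 3.34 in the lung libraries, with a median of 1.01 (17.3-fold lower, standard error of log2 0.382, adjusted p = 0.000962). No lung library reached a parental one, and the adipocyte markers *Adipoq* and *Lep* were at 0 in both. In YEJG, *Scd1* went from 46.1 to 559.9 and 656 and *Fads2* from 228 to 359 and 496. Over the alternatives that kept the fat-pad lines, the number of members called higher ran from 2 in run A alone to 10 in limma-voom. It was at most 1 with the fat-pad lines left out of the fit.

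Class I antigen presentation is the route by which cells show peptides to cytotoxic T cells. Of 23 of its genes tested, 4 were called higher and 0 lower, beside 1.47% and 1.91% of all genes tested, with a median log2 change of 0.18. *Psmb8*, an immunoproteasome subunit, had 0, 1.09 and 2.55 normalised counts in the parental libraries, 4 reads in all, and 25 to 88.9 in the lung libraries, with a median of 60.9 (log2 5.57, standard error 0.64, adjusted p = 0.00274). *Nlrc5*, the transactivator of class I genes, had 3 parental reads against 388 in the lung libraries, a ratio of 24.6 with a 95% exact counting interval from 8.37 to 120.0 (adjusted p = 0.0179). Both genes were near 0 in the parental culture.

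*Tap2*, which carries peptides into the endoplasmic reticulum, had 132, 124 and 117 against 218 to 389, with a median of 317 (log2 1.38, adjusted p = 0.0081). *B2m*, the light chain of class I molecules, had 2904, 2870.0 and 3001 against 3187 to 4233, with a median of 3600.4 (log2 0.35, adjusted p = 0.00991). The libraries did not overlap for any of the 4 genes, beside 408 of all 563 called genes and 5.32% of all genes tested. The heavy chains did not pass: *H2-K1*, whose reads may be shared with paralogs, stood at 2975 ± 193 (SD, n = 5) against 2626 (adjusted p = 0.315) and *H2-D1* at 9164 ± 607 against 9388 (adjusted p = 0.87), both named after their values were seen. In YEJG, *Psmb8* went from 0.3 to 392 and 492 and *Tap2* from 39.6 to 339 and 517, and the change of *Tap2* differed between origins by -1.88 on the log2 scale, YEJH minus YEJG (standard error 0.384, adjusted p = 0.00803). The number of called members stayed at 3 to 5 in all alternatives that kept the fat-pad lines and was at most 1 without them.

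Of 42 interferon response genes, 4 were called higher and 1 lower, beside 1.47% and 1.91% of all genes tested, with a median log2 change of 0.11. *Oas3*, which senses double-stranded RNA, had 10.3, 3.29 and 9.35 normalised counts against 19.4 to 49.8, with a median of 29.7 (4.34-fold, adjusted p = 0.0302). *Igtp*, an immunity GTPase, averaged 20.3 ± 2.9 (SD, n = 5) against 8.02 (adjusted p = 0.0157), and *Bst2*, the virus-tethering protein tetherin, 171 ± 47.5 against 80.2 (adjusted p = 0.0497). *Isg15*, a ubiquitin-like modifier, went the other way, from 201, 216 and 159 to between 67 and 146, with a median of 105 (1.74-fold lower, adjusted p = 0.0454). *Bst2* and *Isg15* lay close to the threshold and missed it in 12 and 9 of 21 alternatives, and *Parp14*, named after its values were seen, was called as well (log2 0.73, adjusted p = 0.0434). The number of members called higher was 1 without YEJH-M4, 2 without YEJH-M3, 2 without YEJH repeat 1 or 2, 1 in run A alone and 0 in run B alone.

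The windows of *B2m* and *Oas3* are shown because they held the interferon response element, searched on both strands as GAAA, any pair of bases and GAAA. It was in 2.9% of all windows and in 1 of the 2 windows of called class I genes. It was also in all 3 windows of interferon genes called higher, those of *Bst2*, *Igtp* and *Oas3*. The interferon gene called lower, *Isg15*, was not counted among these windows. Among all tested interferon genes with a window, 16 of 32 held it. Capitals mark the element, which begins at -139 in *B2m* and at -75 in *Oas3* from the start site.
*B2m*, chr2:122147437-122147736, + strand: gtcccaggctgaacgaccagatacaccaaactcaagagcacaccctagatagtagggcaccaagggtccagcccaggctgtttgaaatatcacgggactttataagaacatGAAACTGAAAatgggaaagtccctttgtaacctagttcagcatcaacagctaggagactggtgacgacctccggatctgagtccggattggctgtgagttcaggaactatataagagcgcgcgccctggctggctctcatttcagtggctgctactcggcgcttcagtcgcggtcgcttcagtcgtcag
*Oas3*, chr5:120777610-120777909, - strand: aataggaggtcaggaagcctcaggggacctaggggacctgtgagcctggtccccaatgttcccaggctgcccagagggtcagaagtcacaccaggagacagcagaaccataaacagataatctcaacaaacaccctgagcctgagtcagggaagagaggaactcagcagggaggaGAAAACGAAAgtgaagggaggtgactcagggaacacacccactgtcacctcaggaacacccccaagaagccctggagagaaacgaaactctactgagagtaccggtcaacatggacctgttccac

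The *Id* genes and *Bmp4*, a target group and a ligand of the BMP arm of TGF-beta signalling, fell. Of 42 TGF-beta, activin and BMP genes tested, 6 were called lower and 0 higher, beside 1.91% and 1.47% of all genes tested, while the median log2 change of the list was -0.08. The 6 were the ligand *Bmp4*, the BMP antagonist *Grem1*, the procollagen protease *Bmp1* and *Id1*, *Id2* and *Id3*, inhibitors of differentiation that BMP receptors are known to induce. *Bmp1* and *Id3* were picked with their values known. The receptors *Tgfbr1*, *Tgfbr2*, *Bmpr1a* and *Bmpr2* and the transducers *Smad2*, *Smad3* and *Smad4* were not called.

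*Id1* had 1426, 1079 and 759 normalised counts in the parental libraries and 402 to 713 in the lung libraries, with a median of 523 (2.06-fold lower, standard error of log2 0.135, adjusted p = 0.0046). *Id2* had 312, 214 and 136 against 70.8 to 149, with a median of 114 (2.04-fold lower, adjusted p = 0.0213). Parental libraries were far apart for both genes, and for *Id2* they overlapped the lung libraries. *Bmp4* had 36.1, 49.3 and 42.5 against 3.53 to 23.8, with a median of 12 (2.91-fold lower, adjusted p = 0.0138), without overlap. *Grem1* was low in all lines, at 3.37 ± 1.31 (SD, n = 5) against 17.1 (adjusted p = 0.0495). The number of members called lower was 2 without YEJH repeat 2 and 0 with the fat-pad lines left out of the fit. In YEJG, *Id2* went from 254 to 695 and 508, and its change differed between origins by -2.33 on the log2 scale (standard error 0.339, adjusted p = 0.00126).

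Wnt genes were called in both directions, 2 higher and 2 lower of 34 tested, beside 1.47% and 1.91% of all genes. *Rnf43*, a ligase that removes Frizzled receptors from the membrane, had 6.45, 4.38 and 5.95 normalised counts against 19.6 to 91.8, with a median of 53.8 (10.3-fold, adjusted p = 0.0187). *Fzd1*, like *Fzd3* a Frizzled receptor, was lower at 247 ± 39.3 (SD, n = 5) against 375 (adjusted p = 0.0423), although its libraries overlapped. *Kremen1*, a coreceptor of the Wnt inhibitor Dickkopf, rose 1.36-fold and is taken up below.

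Of 38 epithelial junction genes, 1 was called, a share near the 3.38% of all genes. This was the desmosomal plakophilin *Pkp3*, at 2215 ± 88.1 (SD, n = 5) against 3094 (adjusted p = 0.00954). In YEJG this list had a median log2 change of -1.72 beside -0.07 in YEJH. By the test of origin 26 of the 38 genes had a higher change in YEJH, beside 1135 of all 17110 genes tested. Of 23 luminal genes, 3 were called higher and 1 lower, beside 1.47% and 1.91% of all genes tested. *Tfap2c*, a transcription factor of luminal cells, had 1.29, 1.09 and 1.7 against 22.9 to 136, with a median of 45.6 (log2 5.60, adjusted p = 0.0329). *Prlr*, the prolactin receptor, had 0 reads in all 3 parental libraries and 1.77 to 22.1 normalised counts in the lung libraries, which was at least 8.63-fold higher against a floor of 3 reads over the parental libraries (adjusted p = 0.041). *Lcn2*, lipocalin 2, averaged 50 ± 25.7 against 6.57 (adjusted p = 0.0477). *Areg*, an EGF receptor ligand, was lower at 2908 ± 187 against 3975 (adjusted p = 0.0224), and *Egfr* itself was higher at 1484 ± 92 against 1086 (adjusted p = 0.0467). *Itgb4*, the hemidesmosomal integrin, was lower at 12921 ± 301 against 17688 (adjusted p = 0.0108). Of 25 ErbB receptors and EGF-like ligands tested, 1 was called higher and 2 lower. Of 37 integrins and focal adhesion adaptors, 1 was called higher and 1 lower. These counts stand beside 1.47% and 1.91% of all genes tested.

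Among 40 glycolysis and hypoxia genes, 3 were called higher, beside 1.47% of all genes tested. The glycolytic enzyme *Aldoc* was among them, while *Gpi1*, *Aldoa*, *Pgk1*, *Eno1*, *Pkm* and *Ldha* were not. *Car9*, the hypoxia-induced carbonic anhydrase, had 14.2, 6.57 and 10.2 normalised counts against 40.1 to 136, with a median of 95 (8.5-fold, adjusted p = 0.0296), and the related *Car12*, described above, was another of the 3. *Aldoc* averaged 35.8 ± 5.14 (SD, n = 5) against 18.6 (adjusted p = 0.0495) and missed the threshold in 14 of 20 alternatives. Of 15 imprinted genes tested, 2 were called higher and 0 lower, beside 1.47% and 1.91% of all genes tested, with a median log2 change of -0.07. The imprinted neighbours *Peg10* and *Sgce* rose from 1.51 to 41.1 ± 13.5 and from 3.26 to 43.3 ± 9.24 (adjusted p = 0.0425 and 0.0369). In YEJG, *Peg10* went from 0 to 6.72 and 73.5.

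None of 43 proliferation and mitosis genes was called by edgeR's quasi-likelihood test. In that test 8 had an unadjusted p under 0.05, beside 2915 of all 16653 genes tested. DESeq2 called 4, beside 1125 of 16653. Of 34 p53 pathway genes, 3 were called lower, beside 1.91% of all genes tested. These were *Sulf2*, a heparan sulfatase, at 521 ± 44.4 (SD, n = 5) against 1353, the apoptosis gene *Bax* at 1682 ± 109 against 2324, and *Perp* at 4739 ± 248 against 6046. Of 54 proteases and inhibitors, 1 was called higher and 2 lower, beside 1.47% and 1.91% of all genes tested. The aggrecanase *Adamts5* was higher, at 99.5 ± 40.1 against 16.8. The kallikrein *Klk10* and the inhibitor *Spint2* were lower, at 4812 ± 355 against 8401 and 2979 ± 129.9 against 4189.

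Of 51 matrix genes, 1 was called higher and 2 lower, beside 1.47% and 1.91% of all genes tested. *Ccn2*, a matricellular protein, was higher at 2009 ± 143 (SD, n = 5) against 1389. The basement membrane collagen *Col4a2* was lower at 4649 ± 838 against 9087, and syndecan *Sdc1* at 12659 ± 745 against 18739. *Decr1*, the called member among 34 fatty acid oxidation genes, averaged 275 ± 60 against 71.3. *Il23a*, a cytokine subunit, averaged 351 ± 61.2 against 159.9 and was 1 of 2 called among 37 chemokines and myeloid growth factors. *Vldlr*, the very low density lipoprotein receptor, had 3 parental reads against 620.0, a ratio of 39.4 with a 95% exact counting interval from 13.4 to 192. It was the called member among 38 amino acid and unfolded protein response genes, a share near the 3.38% of all genes. The adapters *Grb7* and *Lims1*, the peroxidase *Prdx6* and the RNA-binding *Zfp36* changed by -0.37, 0.27, -0.29 and -0.49 on the log2 scale. The calls of *Grb7*, *Prdx6* and *Zfp36* were each lost in 7 of 21 alternatives. In the 25 lists together 782 distinct genes were tested, and 68 of them (8.7%) were called, 43 higher and 25 lower, beside 3.38% of all genes. The lists were chosen with earlier results of these data known, so the higher share may follow from that choice and carries no test.

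Pyrimidine metabolism, on which the study centred, showed 2 calls among 33 genes, beside 3.38% of all genes tested. *Slc29a1*, the nucleoside transporter that carries uridine across the membrane, had 788, 609 and 547 normalised counts in the parental libraries and 882 to 1717 in the lung libraries, with a median of 1198 (1.98-fold, adjusted p = 0.0131). *Uck2*, which phosphorylates uridine and cytidine, had 6805, 6443 and 5689 against 3872 to 4835, with a median of 4306 (1.46-fold lower, standard error of log2 0.0574, adjusted p = 0.00156). Neither gene overlapped between groups by library, which held for 408 of all 563 called genes and 5.32% of all genes tested. *Upp1*, uridine phosphorylase, had 370.1, 418 and 327 against 361 to 623, with a median of 532, and did not pass (log2 0.42, standard error 0.207, adjusted p = 0.343). Its lung lines ran from 371 in YEJH-M5, which lay below the parental line at 384, to 584 in YEJH-M2.

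Set against the fat-pad lines, the lung lines differed in 5 of 16653 genes (0.03%) at an adjusted p of 0.05, with 1304 at an unadjusted p under 0.05. Of the 5, *Kremen1* and *Adamtsl3* were also called against the parental line. *Kremen1* had 299, 258 and 267 normalised counts in the parental libraries, 247 to 322 in the fat-pad libraries and 322 to 423 in the lung libraries, where the median was 379.7. By line, fat-pad lines spanned 266 to 279 and lung lines 346 to 391, without overlap (log2 difference 0.45, standard error 0.043, adjusted p = 0.00698). Without YEJH-M4 the adjusted p was 0.068, which misses the threshold. *Adamtsl3* averaged 51.3 ± 5.17 (SD, n = 5) in lung lines and 108 ± 4.03 in fat-pad lines, both below the parental line at 254 (log2 difference between lung and fat pad -1.11, standard error 0.0848, adjusted p = 0.00147).

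The other 3 genes, named after their values were seen, were lower in lung than in fat-pad lines and were not called against the parental line. *Aqp1*, a water channel, stood at 16 in the parental line, 125 ± 37.5 in fat-pad lines and 40.2 ± 8.47 in lung lines (SD, n = 5, adjusted p between lung and fat pad = 0.0328). *Lama4*, a laminin chain, stood at 16.6, 28.6 ± 7.85 and 9.97 ± 1.29 (adjusted p = 0.0298), and *Dlc1*, which restrains small GTPases, at 169.9, 298 ± 33.8 and 188 ± 7.71 (adjusted p = 0.0328). The number of genes was 1 without YEJH-M4, 16 without YEJH-M1 and 111 without YEJH-M5.

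**Figure D5:**
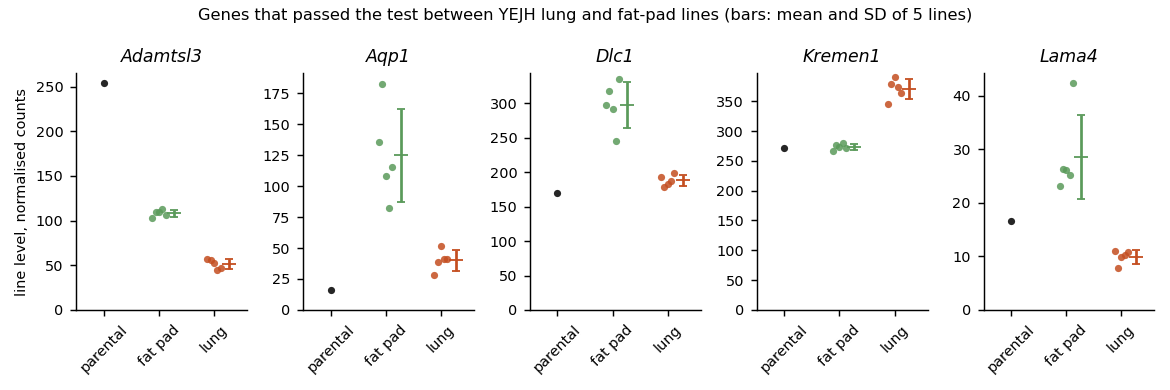
The level of each YEJH line in normalised counts is shown for the 5 genes that passed between lung and fat-pad lines, with the parental line in black, fat-pad lines in green and lung lines in orange. Bars give the mean and SD of 5 lines. Of the genes shown, *Kremen1* is the one that is higher in lung lines, and its parental line lies within the range of its fat-pad lines.

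The 5 lung lines differed in how many genes set them apart from the parental line. Tested alone with libraries kept apart, YEJH-M1 had 1169 genes higher and 1099 lower, and YEJH-M5 had 606 and 939, with the other 3 between them in the number higher and from 926 to 982 in the number lower. YEJH-M5 was the nearest of the lung lines to the parental line for 102 of the 245 genes called higher and for 99 of the 318 called lower, YEJH-M1 for 39 and 92, YEJH-M2 for 48 and 63, YEJH-M3 for 28 and 38 and YEJH-M4 for 28 and 26. The median SD between repeat libraries over 9433 genes of at least 100 normalised counts was 11.6% of the mean in the parental line and 5.1% to 11.5% in the lung lines. Between the levels of the 5 lung lines it was 6.76%.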

How the data were processed

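The authors deposited raw read counts per gene, whole numbers that were not normalised, for 45 libraries of polyA RNA made with the TruSeq RNA v2 kit. The submitters' processing notes name FastQC, HISAT2, SAMtools 1.2 and HTSeq, and the build GRCh38, although all gene IDs are mouse. Symbols came from GENCODE M39, which matched 50764 of 54838 IDs (92.6%), and no coordinates were taken from it. HTSeq's 5 classes of unassigned reads took 31.7% to 43.3% of a library and were left out. The class for low alignment quality was 0 in run B and 892979 to 1372504 reads in run A. Lines and repeats came from the labels.

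Counts were summed over the 3 repeats of a line and the 11 YEJH lines were fitted with edgeR 4.0.16 in R 4.3.3 (quasi-likelihood test, TMM, filterByExpr, Benjamini-Hochberg adjustment), with the share of reads from run A as covariate. Lung was then contrasted with parental and with fat-pad lines. The change between origins was tested over all 15 lines. Normalised counts were scaled by TMM to the mean library, and the level of a line is the mean of its run A and run B means. Standard errors follow from the log2 change and the F statistic. The text names the 12 largest increases and decreases among called protein-coding genes with at least 100 normalised counts and no overlap of libraries, up to 4 called members of each list by size of change, *Upp1*, and others that are said to be named after their values were seen. The non-members of this rule in the lipid, class I, TGF-beta and glycolysis paragraphs are of that kind. Members and gene lists were chosen with earlier results of these data known.

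Alternatives used DESeq2 1.42.0 and limma 3.58.1, other filters and scalings, single runs, fewer lines or fewer libraries. On simulated data the fit recovered 28 of 67 genes changed 1.5-fold, 55 of 67 changed 2-fold and 66 of 66 changed 4-fold, over 16284 genes, with 7 calls among unchanged genes. The simulation changed only genes above a set level, in the lung lines alone, and scored the adjusted p without the rule on sides. It gave the parental line no difference of its own and held no run effect. The limit of a single parental culture is therefore not covered by it. Promoter windows came from RefSeq on GRCm38.p6. Values of some genes that enter the counts are not reported here.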

Additional observations from a re-analysis of the deposited data

Results flagged for a closer look

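Among the 77 genes named by rule and reported here, *Upp1* included, 3 had a lung line set apart from the other 4 by Dixon's test, where chance gives about 3.9. *Fzd3* stood at 74.8 normalised counts in YEJH-M5 with the next line at 20.2, *Pkp3* at 2372 in YEJH-M1 with the next at 2181, and *Spint2* at 3205 in YEJH-M1 with the next at 2964.

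The lung minus parental change differed between the origins YEJH and YEJG for 27 of these genes at an adjusted p of 0.05 in edgeR's quasi-likelihood test, and for 14 of them the YEJG change had the opposite sign. As YEJH minus YEJG on the log2 scale, the difference was negative for *Epb41l3* (-7.94), *Wtip* (-5.33), *Adamtsl3* (-5.16), *Decr1* (-3.56), *S100a4* (-3.11), *Nkain2* (-2.70), *Id2* (-2.33), *Sulf2* (-2.23), *Ppic* (-2.18), *Tap2* (-1.88) and *Slc29a1* (-0.83). It was positive for the lipid genes *Cyp51* (1.86), *Idi1* (1.76) and *Mvd* (1.10), and for *Apobr* (1.22). It was positive as well for the epithelial and surface genes *Itgb4* (2.03), *Pkp3* (1.70), *Spint2* (1.63), *Klk10* (1.24), *Egfr* (1.16), *Sdc1* (1.13), *Areg* (0.85) and *Perp* (0.54), and for *Nkd2* (5.64), *Cd55* (3.54), *Il23a* (2.75) and *Ccn2* (1.60). Each origin has a single parental culture, so origin and culture cannot be told apart.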

How the results depend on the processing

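The lung against parental count of 563 genes became 1125 by DESeq2 (570 higher, 555 lower), 1473 in limma-voom with libraries kept apart, 292 in run B alone, 14 with the fat-pad lines left out and 21 with the run covariate left out too. It was 438 to 623 under library size alone, both other filters and no run covariate, 388 in run A alone (129 higher, 259 lower), and 718 and 617 in the alternatives chosen after seeing the data, without YEJH-M3 repeat 2 and without YEJH repeat 1 as well. Leaving out a lung line or a parental repeat gave 273 to 2103, and the split was 226 higher and 115 lower without YEJH repeat 2 and 1196 and 907 without YEJH repeat 3. The cause was not tested.

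The count for each line tested alone, 483, ran from 315 to 778 when a parental repeat was left out, and was 475 to 490 otherwise without a block. The lung against fat-pad count of 5 ran from 1 to 111 when a lung line was left out. The count of genes that differed between origins, 2170, stayed within 1807 to 2504. No named gene changed direction, which the rule for calling largely fixed in advance. Of the values for single genes and lists, 1378 stayed on their side of the threshold or within 1.5-fold, 321 kept their direction and no longer passed, and 20 counts moved further. Nothing in the labels ties equal repeat numbers together. The mean correlation of deviations was 0.297 for the same number in other lines (165 pairs, -0.403 to 0.792) and -0.147 for other numbers (330 pairs), so that not every pair passed 0.1 and the numbers were not taken as pairs. With the repeat number as a replicate block the counts were 1516 in limma-voom and 624 for each line tested alone. The fit rests on a single parental culture, which limits every value here.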
